A study of Mus musculus with 20 samples.

Results

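The complement system was examined through 34 listed mouse genes, chosen by name and split by role into 10 genes of the classical and lectin pathways, 4 of the alternative pathway with the shared component C3, 7 of the terminal pathway, 8 regulators and 5 receptors. They are 34 of the 25700 genes in the deposited count tables. Of these, 32 were detected and tested. C8b, a chain of the membrane attack complex, had 8 counts and Vsig4, a macrophage receptor for C3 fragments, had 6 counts summed over the 20 libraries, and neither was given a test.

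The study placed mice with a crystal nephropathy on bicarbonate as an alkali therapy. RNA was sequenced in 4 groups of 5 libraries: oxalate mice given alkali therapy (titled Oxalate_late), oxalate mice left untreated (Oxalate), control mice given alkali therapy (Control_late) and untreated control mice (Control). Strain, sex, age, tissue, the oxalate and bicarbonate doses and the meaning of "late" are not given in the sources used here. Kidney tubule and podocyte markers were present in every library. The summed level of that marker list ran from 6954 to 14410 CPM (counts scaled to a common, TMM-adjusted library total) in the 2 oxalate groups and from 13630 to 15960 CPM in the 2 control groups. Total counts per library ran from 25547840 to 39550689. Nothing in the labels says that the libraries came from separate animals, so each p-value reflects only how far these libraries spread, and that spread may be technical.

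Complement is a cascade of plasma and tissue proteins. The classical pathway starts when C1q binds antibody complexes or damaged surfaces, the lectin pathway when lectins bring MASP proteases to sugars, and the alternative pathway amplifies cleaved C3 with factor B and factor D. All routes cleave C3 and then C5, which releases the signalling peptides C3a and C5a and seeds the membrane attack complex of C5b to C9. Most circulating components are made in liver, while kidney tubule cells, fibroblasts and macrophages also express some of them.

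Promoter sequences are shown for 3 members that stand for the patterns described here: C1qb and C3, which were higher in oxalate, and C8a, which was lower. C3 and C8a were chosen after their values were seen. Each is the 250 bases before the RefSeq gene start, 5′ to 3′ on the gene's strand, from GRCm38.p6. Capitals mark the matches found by a search of both strands. They are GAGGAA in C1qb (chr4:136886201-136886450, minus strand), TTGCNNAA in C3 (chr17:57228137-57228386, minus strand) and TTCNNNGAA in C8a (chr4:104876399-104876648, minus strand).
C1qb: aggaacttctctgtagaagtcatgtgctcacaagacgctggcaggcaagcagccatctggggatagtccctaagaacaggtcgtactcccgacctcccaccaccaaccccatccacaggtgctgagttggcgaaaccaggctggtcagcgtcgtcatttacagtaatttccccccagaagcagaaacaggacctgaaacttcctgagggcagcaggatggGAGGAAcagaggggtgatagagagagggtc
C3: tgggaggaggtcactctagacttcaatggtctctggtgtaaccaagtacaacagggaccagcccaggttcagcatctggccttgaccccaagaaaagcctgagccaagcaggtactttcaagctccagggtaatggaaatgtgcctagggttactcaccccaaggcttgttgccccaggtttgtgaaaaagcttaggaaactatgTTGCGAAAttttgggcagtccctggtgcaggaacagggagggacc
C8a: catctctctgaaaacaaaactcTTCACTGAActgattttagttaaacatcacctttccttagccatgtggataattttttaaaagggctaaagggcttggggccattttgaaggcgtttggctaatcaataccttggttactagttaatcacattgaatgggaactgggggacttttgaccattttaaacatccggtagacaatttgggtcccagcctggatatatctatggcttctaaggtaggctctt

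Of 27025 RefSeq promoters of the same kind, 23.1% held GAGGAA, 9.55% held TTGCNNAA and 7.18% held TTCNNNGAA. Promoters were found for 26 of the 34 members. GAGGAA was in those of C1qb, C1qc, Cd59a and Vsig4. TTGCNNAA was in those of C1rl, C1s1, C3, C5ar2 and C9, and TTCNNNGAA in those of C7, C8a and Masp2. The TTGCNNAA and TTCNNNGAA lists each hold genes that were higher and genes that were lower in untreated oxalate. A match describes letters in this window and is not evidence of a bound site. An interferon regulatory factor motif was held by 3.04% of all promoters and by that of Cd59a, an NF-kB motif by 4.6% and by that of C3ar1, and TGANTCA by 6.87% and by those of C1qbp and C3ar1.

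In untreated oxalate libraries, C1q chains, C3, the terminal components C6 and C7, the inhibitor Serping1 and the anaphylatoxin receptors were higher than in untreated controls, while factor B, C8a, C8g and Masp2 were lower. By edgeR's quasi-likelihood test at a Benjamini-Hochberg adjusted p under 0.05, 18 of the 32 tested members were higher and 8 were lower. That is 81.2% of the tested members, beside 49.4% of all 15430 tested genes (26.4% higher and 23.1% lower). With total-count scaling, which moved the median of all genes by 0.302 on the log2 scale, 21 were higher and 5 lower. The shares of all genes given here are those with TMM scaling. Masp1, Hc, C6 and C5ar2 passed the filter on low counts through the oxalate groups, so their place among the higher genes follows partly from the filter. The median log2 fold change of the tested members was 1.75. C2, Cd46, Cd59a, Cfd, Cr1l and Cr2 did not pass the test.

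With alkali given to both groups, oxalate against control had 20 members higher and 6 lower by the same test, beside 40.4% of all tested genes called (23.4% higher and 17.1% lower). With total-count scaling, which moved the median of all genes by 0.211 on the log2 scale, 21 were higher and 3 lower. The shares of all genes are again those with TMM scaling. The median log2 fold change was 1.26. Cd46 and Cd59a were among those called higher, and C9 and Cd55 were not called. Masp1, Hc, C6 and C5ar2 were also called higher, and their place there again follows partly from the filter on low counts. The difference between the 2 oxalate effects was tested as an interaction and is given after the gene groups.

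**Figure D1:**
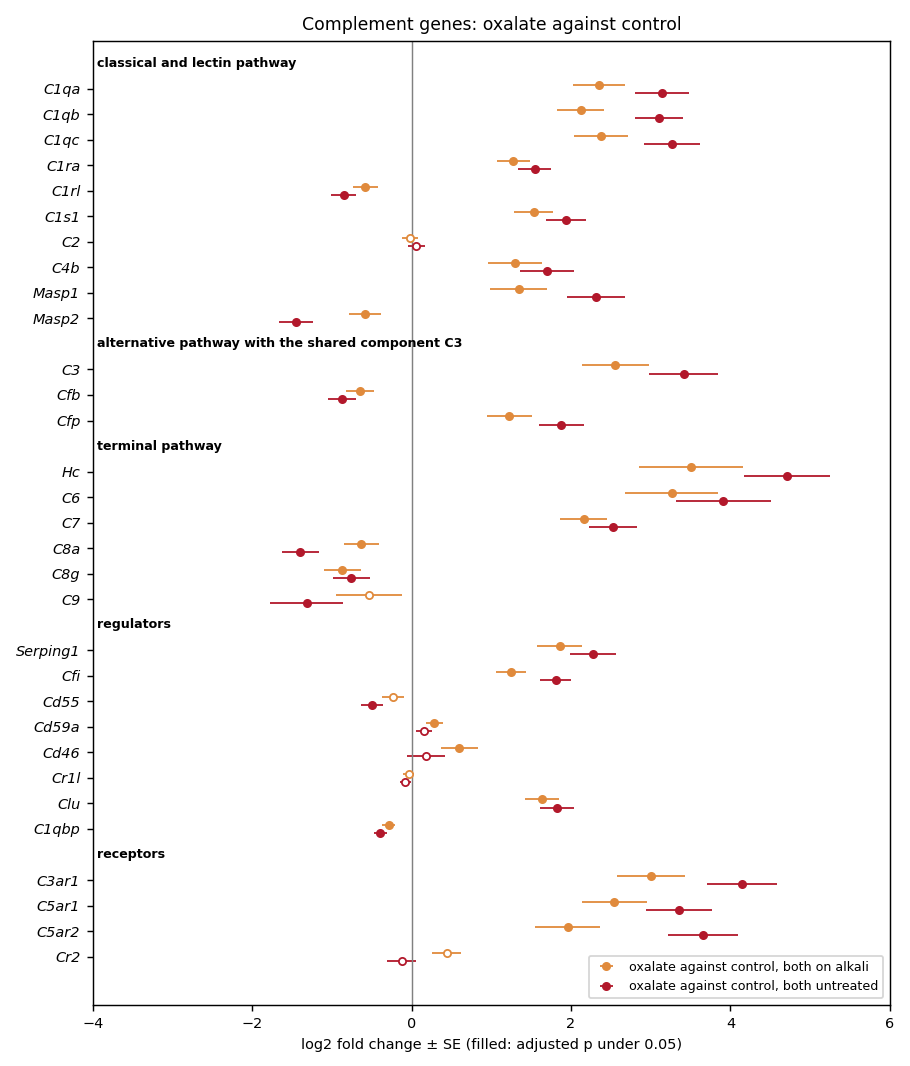
Log2 fold changes (± SE, from edgeR's fit to 20 libraries) of the tested members by role, for oxalate against control on alkali (orange) and for oxalate against control without alkali (red). Factor D (Cfd), whose SE exceeded 1.9, is not drawn. The C1q chains, C3, C6 and the anaphylatoxin receptors lie far to the right in both comparisons, and Cfb, C8a, C8g and Masp2 lie to the left.

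Values below are CPM. They are listed by library number: 2, 5, 8, 30 and 33 for oxalate on alkali, 3, 12, 32, 39 and 40 for untreated oxalate, 1, 4, 7, 27 and 37 for control on alkali, and 9, 13, 19, 26 and 35 for untreated control. In bulk RNA, a change in the number of cells of a type and a change in RNA per cell cannot be told apart.

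In the classical pathway the C1q chains changed most. C1qb, 1 of the 3 chains of the recognition molecule C1q, had 25.1, 75.6, 96.5, 59.2 and 84.5 CPM in oxalate on alkali and 131, 163, 72.5, 108 and 179 CPM in untreated oxalate. It had 16.9, 18.6, 15.0, 15.4 and 12.6 CPM in control on alkali and 15.4, 10.5, 21.8, 12.1 and 16.1 CPM in untreated control. Every oxalate library lay above every control library, and library 2 was the lowest of the oxalate libraries. C1qb rose by 3.10 ± 0.30 on the log2 scale without alkali (adjusted p = 6.17e-07) and by 2.12 ± 0.29 on alkali (adjusted p = 8.56e-05; edgeR's quasi-likelihood test). The other chains moved alike, with log2 fold changes of 3.14 ± 0.34 for C1qa and 3.26 ± 0.35 for C1qc without alkali.

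The proteases C1r and C1s, which C1q activates, rose less. C1ra ranged over 17.1 to 35.8 CPM in untreated oxalate and 7.36 to 10.1 CPM in untreated control, a log2 fold change of 1.54 ± 0.21. C1s1 ranged over 43.7 to 110 CPM in untreated oxalate and 15.8 to 19.3 CPM in untreated control, a log2 fold change of 1.93 ± 0.25. Neither range overlapped its control. C4b, which the C1s protease cleaves, had a log2 fold change of 1.70 ± 0.34, and reads shared with its near-identical copy C4a, not analysed here, leave its level uncertain. C1ra and C1s1 also have close copies, C1rb and C1s2.

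C2, the partner of C4b in the C3 convertase, had 42.5 to 56.0 CPM in untreated oxalate and 42.1 to 51.9 CPM in untreated control with no call (log2 fold change 0.06 ± 0.11, adjusted p = 0.674 by edgeR). Its exons overlap Gm20547 on the same strand and Zbtb12 on the opposite strand, which leaves its level uncertain. C1rl, a C1r-like protease, fell by 0.85 on the log2 scale (SE 0.15). It ranged over 11.5 to 22.1 CPM in untreated oxalate and 29.8 to 38.9 CPM in untreated control.

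The 2 lectin pathway proteases moved in opposite directions. Masp1 was higher, at 0.496 to 1.81 CPM in untreated oxalate and 0.137 to 0.296 CPM in untreated control (log2 fold change 2.31 ± 0.36). Masp2, which cleaves C4 and C2, had 1.52, 1.25, 1.59, 1.67 and 1.54 CPM in oxalate on alkali and 0.832, 0.417, 0.699, 0.727 and 0.389 CPM in untreated oxalate. It had 1.82, 2.42, 2.46, 2.50 and 2.19 CPM in control on alkali and 1.66, 2.12, 1.78, 1.47 and 1.34 CPM in untreated control. All 5 untreated oxalate libraries lay below all 15 others. Its log2 fold change was -1.46 ± 0.21 without alkali (adjusted p = 2.43e-05) and -0.59 ± 0.20 on alkali (adjusted p = 0.026) by edgeR. The call on alkali was lost with total-count scaling (adjusted p = 0.114), without library 5, 7 or 27 (adjusted p = 0.0555 to 0.0651) and without the 6 libraries with Adipoq above 1 CPM (adjusted p = 0.0683). Masp2 rests on 15 to 72 counts per library, and its exons overlap Tardbp on the opposite strand, which had 3902 to 9496 counts. The strand setting of the counting is not given in the sources used here.

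In the alternative pathway group, C3 and properdin were higher and factor B was lower. C3, the central component, had 46.3, 121, 143, 85.0 and 193 CPM in oxalate on alkali and 237, 402, 162, 203 and 335 CPM in untreated oxalate. It had 18.4, 37.5, 15.9, 17.2 and 11.3 CPM in control on alkali and 18.9, 17.1, 19.5, 54.4 and 15.6 CPM in untreated control. No oxalate library overlapped the controls of its own treatment, although library 26 among untreated controls (54.4 CPM) was above library 2 of oxalate on alkali (46.3 CPM). The log2 fold change was 3.41 ± 0.44 without alkali (adjusted p = 6.17e-06) and 2.56 ± 0.42 on alkali (adjusted p = 0.000302) by edgeR. Without the 6 libraries with Adipoq above 1 CPM it was 4.03 without alkali.

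Cfb, the gene for factor B, which supplies the protease of the alternative C3 convertase, had 516, 360, 314, 371 and 256 CPM in oxalate on alkali and 313, 321, 403, 294 and 186 CPM in untreated oxalate. It had 556, 617, 593, 581 and 513 CPM in control on alkali and 561, 660, 510, 470 and 580 CPM in untreated control. Without alkali the groups did not overlap, and on alkali library 2 of oxalate lay above the lowest control library. The log2 fold change was -0.87 ± 0.18 without alkali and -0.65 ± 0.18 on alkali (adjusted p = 0.000524 and 0.00816 by edgeR). Without the 6 Adipoq libraries the call on alkali was lost (adjusted p = 0.0553 by edgeR). Cfb shares most of its exons with the readthrough gene Gm20547, and its counts were 87.7% to 98.7% of those of Gm20547.

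Per kilobase of exon, Cfb had the highest mean level of the members in untreated control, with 107.4 CPM per kb in untreated oxalate and 196.9 CPM per kb in untreated control. C3 had 52.0 CPM per kb in untreated oxalate and 4.88 CPM per kb in untreated control. Properdin (Cfp), which stabilises the alternative convertase, rose by 1.88 ± 0.28 on the log2 scale without alkali.

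Factor D (Cfd), the protease that cleaves factor B and a product of fat cells, varied widely between libraries and was not called. It had 0.0344, 0.136, 0.287, 0.0252 and 110 CPM in oxalate on alkali and 0.0333, 0.250, 7.54, 0.827 and 0.320 CPM in untreated oxalate. It had 10.5, 39.5, 0.447, 0 and 0.689 CPM in control on alkali and 42.1, 0.127, 0, 96.8 and 0 CPM in untreated control. The high libraries were those with Adipoq, the fat cell gene adiponectin, above 1 CPM, and every group held at least 1 of them. The log2 fold change was -3.96 ± 2.21 without alkali (adjusted p = 0.147 by edgeR). Of 7 tested adipose markers 1 was lower in untreated oxalate, beside 23.1% of all tested genes. The list summed to 52.2 to 96.9 CPM in untreated oxalate and 66.8 to 661 CPM in untreated control. The part of these markers in the Cfd values was not tested.

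**Figure D2:**
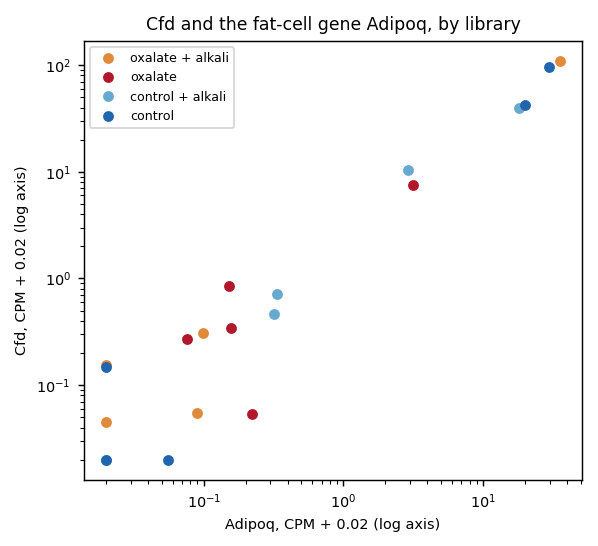
Level of Cfd against Adipoq in each of the 20 libraries, both as CPM + 0.02 on log axes, coloured by group. Libraries high in one were high in the other, up to 110 CPM of Cfd in library 33 of oxalate on alkali, and each group has low and high libraries.

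In the terminal pathway, C5, C6 and C7 were higher, and the C8 chains C8a and C8g were lower. The genes of C5 (Hc) and C6 passed the filter on low counts through the oxalate groups, so both calls follow partly from the filter. Hc, the mouse gene for C5, had 0.241, 0.190, 0.313, 0.303 and 0.360 CPM in oxalate on alkali and 1.16, 1.92, 0.961, 0.298 and 1.10 CPM in untreated oxalate. It had 0.0363, 0, 0.0372, 0 and 0.0313 CPM in control on alkali and 0, 0.0423, 0.0713, 0.0342 and 0.0406 CPM in untreated control. The oxalate libraries lay above the controls, at low levels throughout. A level of 3 counts corresponds to 0.0686 to 0.127 CPM, and every control library had 2 counts or fewer, so the size of the fitted fold change depends on the fit's treatment of low counts. The log2 fold change was 4.71 ± 0.54 without alkali (adjusted p = 1.84e-06 by edgeR).

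C6 had 1.34, 2.61, 3.34, 2.32 and 3.89 CPM in oxalate on alkali and 3.86, 3.78, 1.83, 3.50 and 6.22 CPM in untreated oxalate. It had 0.0726, 0.989, 0.149, 0.139 and 0.0626 CPM in control on alkali and 0.565, 0.339, 0.107, 0.103 and 0.162 CPM in untreated control. Every oxalate library was above every control library, and library 4 was the highest control. C6 rose by 3.91 ± 0.59 on the log2 scale without alkali and by 3.26 ± 0.58 on alkali, or 4.64 without library 4 and 4.32 without the 6 Adipoq libraries. C7, which anchors the growing complex in the membrane, ranged over 13.1 to 37.1 CPM in untreated oxalate and 2.96 to 6.06 CPM in untreated control, a log2 fold change of 2.52 ± 0.30.

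C8a, the alpha chain of C8, had 38.8, 15.6, 17.7, 28.6 and 15.6 CPM in oxalate on alkali and 13.3, 17.8, 24.0, 19.8 and 11.3 CPM in untreated oxalate. It had 38.5, 37.3, 30.6, 36.1 and 37.2 CPM in control on alkali and 46.9, 51.3, 35.9, 49.4 and 43.2 CPM in untreated control. Without alkali the groups did not overlap. On alkali, library 2 of oxalate lay above all 5 control libraries. The log2 fold change was -1.40 ± 0.23 without alkali (adjusted p = 7.07e-05) and -0.63 ± 0.22 on alkali (adjusted p = 0.0314) by edgeR. The call on alkali was lost when any of libraries 1, 5, 8, 27, 33 or 37 was left out (adjusted p = 0.0529 to 0.0887), with total-count scaling (adjusted p = 0.0528) and without the 6 libraries with Adipoq above 1 CPM (adjusted p = 0.177). C8g fell by 0.76 (SE 0.23). C9, which forms the pore, ranged over 0.0661 to 0.291 CPM in untreated oxalate and 0.264 to 0.499 CPM in untreated control. These ranges overlapped, and its log2 fold change of -1.31 ± 0.46 lost its call without library 19 or 39 (adjusted p = 0.0637 and 0.0519 by edgeR). Without the 6 Adipoq libraries it was -1.98.

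The third C8 chain, C8b, had 0 counts in the 10 control libraries, and its 8 counts were in oxalate libraries. Of 8 tested liver markers 1 was higher (Fgb) and 1 lower (Alb) in untreated oxalate, beside 26.4% of all tested genes higher and 23.1% lower. The list summed to 730 to 1911 CPM in untreated oxalate and 1723 to 2976 CPM in untreated control. Those sums follow mainly Cyp2e1, which was not called and had 22990 to 57792 counts in untreated oxalate and 44653 to 70110 in untreated control. Alb had 119 to 211 counts in untreated oxalate and 156 to 251 in untreated control. The liver marker Cps1 was at 0 in all 5 untreated control libraries. The part of liver transcripts in the terminal pathway values was not tested.

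**Figure D3:**
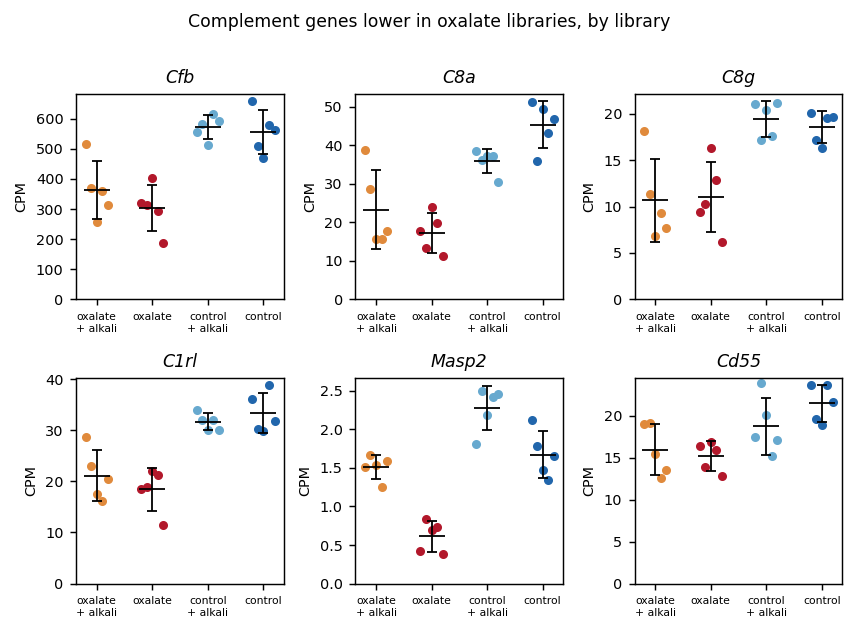
CPM of Cfb, C8a, C8g, C1rl, Masp2 and Cd55 in each library, with group means and SD (n = 5), for oxalate on alkali, untreated oxalate, control on alkali and untreated control. Masp2 in untreated oxalate lies at 0.389 to 0.832 CPM, below the other 3 groups, and Cfb at 186 to 403 CPM, below both control groups.

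Among the regulators, the secreted proteins Serping1, Cfi and Clu were higher in oxalate, and the membrane protein Cd55 was lower without alkali. Serping1, the C1 inhibitor, had 67.6, 150, 193, 110 and 182 CPM in oxalate on alkali and 218, 235, 102, 128 and 307 CPM in untreated oxalate. It had 42.7, 50.4, 29.0, 33.7 and 38.1 CPM in control on alkali and 44.1, 34.5, 41.8, 49.8 and 34.2 CPM in untreated control. No oxalate library overlapped the controls. The log2 fold change was 2.28 ± 0.29 without alkali (adjusted p = 4.33e-06) and 1.86 ± 0.28 on alkali (adjusted p = 0.000138) by edgeR.

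Clu encodes clusterin, a chaperone that also binds terminal complexes. It had 473, 1208, 1169, 674 and 1181 CPM in oxalate on alkali and 992, 1056, 795, 826 and 884 CPM in untreated oxalate. It had 268, 244, 293, 379 and 333 CPM in control on alkali and 279, 210, 312, 211 and 275 CPM in untreated control. Every oxalate library was above every control library. Clu rose by 1.82 ± 0.22 on the log2 scale without alkali and by 1.63 ± 0.22 on alkali, and had the highest mean level per kilobase of the members in untreated oxalate, with 264.9 CPM per kb there and 74.9 CPM per kb in untreated control.

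Cfi, the protease that inactivates C3b and C4b, rose by 1.81 ± 0.20 without alkali on the log2 scale. Cd55, which speeds the decay of convertases, fell by 0.50 (SE 0.13), with 12.8 to 16.9 CPM in untreated oxalate and 18.9 to 23.7 CPM in untreated control. C1qbp, a mostly mitochondrial protein that binds C1q, fell by 0.39 (SE 0.09). Scaling by total counts moved the median of all genes by 0.302 on the log2 scale without alkali and 0.211 on alkali. It ended the calls of Cd55, C1qbp and C9 without alkali, where C2, Cd59a and Cr1l were then called higher.

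Cd59a, which blocks the membrane attack complex, and Cd46, a cofactor for factor I, passed the test in the comparison on alkali, with log2 fold changes of 0.28 ± 0.11 and 0.60 ± 0.23 (adjusted p = 0.0379 and 0.0458 by edgeR). Both calls were lost when single libraries were left out, with adjusted p up to 0.0932 for Cd59a and 0.197 for Cd46. Without the 6 libraries with Adipoq above 1 CPM these calls on alkali were lost too (adjusted p = 0.450 for Cd59a and 0.123 for Cd46 by edgeR), as were those of C1rl (adjusted p = 0.0698) and Masp1 (adjusted p = 0.0982). Cr1l, also called Crry, the main membrane regulator of C3 in mice, ranged over 47.3 to 55.2 CPM in untreated oxalate and 48.3 to 61.1 CPM in untreated control (log2 fold change -0.08 ± 0.07). Scaling by total counts turned this to 0.23 (adjusted p = 0.0298 by edgeR).

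**Figure D4:**
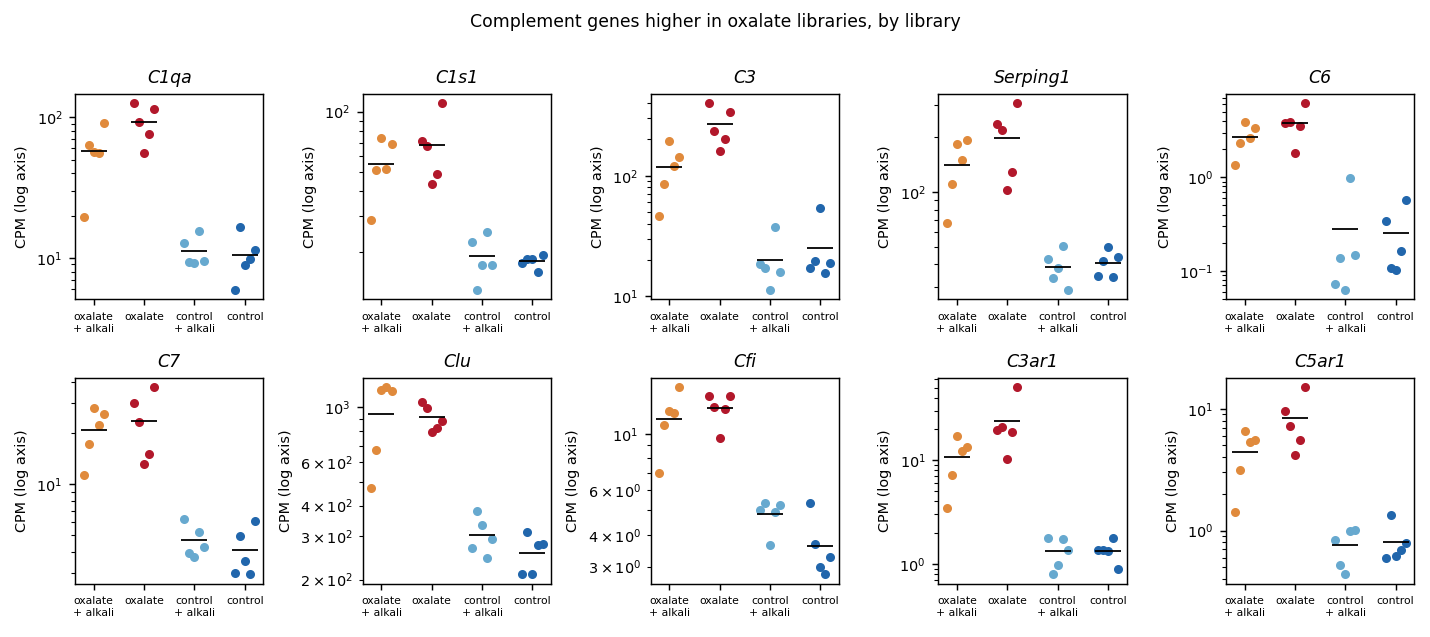
CPM on log axes of C1qa, C1s1, C3, Serping1, C6, C7, Clu, Cfi, C3ar1 and C5ar1 in each library, with a bar at the group mean, for oxalate on alkali, untreated oxalate, control on alkali and untreated control. Both oxalate groups lie above the control group of the same treatment, as in Clu at 795 to 1056 CPM in untreated oxalate and 210 to 312 CPM in untreated control.

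The 3 receptors of the anaphylatoxins were higher in oxalate in both comparisons. C3ar1, the C3a receptor, had 3.44, 12.2, 13.5, 7.22 and 17.1 CPM in oxalate on alkali and 20.7, 19.7, 10.2, 18.6 and 50.3 CPM in untreated oxalate. It had 1.78, 1.76, 1.38, 0.798 and 0.970 CPM in control on alkali and 0.904, 1.35, 1.35, 1.33 and 1.78 CPM in untreated control. Every oxalate library lay above every control library, and library 40 was far above the other untreated oxalate libraries. C3ar1 rose by 4.15 ± 0.44 on the log2 scale without alkali (adjusted p = 9.09e-07) and by 3.0 ± 0.43 on alkali (adjusted p = 8.97e-05) by edgeR. The C5a receptors C5ar1 and C5ar2 had log2 fold changes of 3.36 ± 0.41 and 3.66 ± 0.44 without alkali. Cr2, the receptor for C3d on B cells, ranged over 2.11 to 2.97 CPM in untreated oxalate and 1.85 to 3.49 CPM in untreated control, with no call.

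Marker lists of other cell types moved with these genes. Of all tested genes, 26.4% were higher and 23.1% lower in untreated oxalate against untreated control. Of 10 tested macrophage and monocyte markers 9 were higher in untreated oxalate, and the summed level of the 12 listed ran from 586 to 2514 CPM in untreated oxalate and from 112 to 130 CPM in untreated control, where Marco was at 0. Lyz2 had the most counts of that list in untreated oxalate, 13592 to 82166, against 440 to 765 in untreated control. All 8 fibroblast markers were higher (470 to 1824 CPM in untreated oxalate and 153 to 214 CPM in untreated control), and all 8 proximal tubule markers were lower (14950 to 39300 CPM in untreated oxalate and 46410 to 53660 CPM in untreated control). Library 40 had the highest macrophage and fibroblast sums of untreated oxalate and the lowest proximal tubule sum, and library 32 the reverse. In oxalate on alkali, fibroblast markers summed to 346 to 931 CPM and proximal tubule markers to 18350 to 39470 CPM, against 158 to 319 CPM and 41640 to 48880 CPM in control on alkali. Macrophage markers summed to 243 to 777 CPM in oxalate on alkali and 103 to 154 CPM in control on alkali. Library 2 had the lowest macrophage and fibroblast sums and the highest proximal tubule sum of oxalate on alkali, and it was also the lowest of that group for C1qb and C3 and the highest for Cfb and C8a. Neutrophil markers summed to 4.72 to 15.9 CPM in untreated oxalate and 0.550 to 3.14 CPM in untreated control, with Camp at 0 in both. Ly6g was also at 0 in untreated oxalate. Only 3 of the 8 listed neutrophil markers were tested, and 2 of them, Csf3r and S100a9, were higher. S100a9 had 0 to 14 counts in each control library and passed the filter on low counts mainly through the oxalate groups. Its call as higher follows partly from the filter. Csf3r had the most counts of that list in untreated oxalate, as in library 40 with 562, beside 66 for S100a9 and 50 for S100a8. B cell markers summed to 5.91 to 21.6 CPM in untreated oxalate and 2.15 to 3.35 CPM in untreated control. The part of these cell types in the complement results was not tested. The ratios that follow use macrophage markers alone and show unequal change only.

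Receptor and C1q counts were set against 2 macrophage markers within each library. Csf1r, the receptor for macrophage colony-stimulating factor, had the smallest log2 fold change of the 9 macrophage markers called without alkali, 0.72 ± 0.17, beside a median of 3.06 over the 10 tested. On alkali it was 0.26 ± 0.17 and was not called. Adgre1, the macrophage marker F4/80, had 3.46 ± 0.35 without alkali and 2.28 ± 0.34 on alkali. Per count of Csf1r, C1qa had a median of 0.748 counts in untreated oxalate and 0.136 counts in untreated control. The log2 ratio was higher by 2.52 for C1qa, 3.30 for C3ar1 and 2.59 for C5ar1, each with adjusted p = 0.0212 (exact two-sided permutation test, n = 5 each, adjusted over 16 tests, the smallest p possible being 0.00794 unadjusted). On alkali the log2 differences were 1.96, 2.57 and 2.11, with adjusted p = 0.0212, 0.0212 and 0.0363 (exact permutation test). Per count of Adgre1, a setting chosen after seeing the data, the differences without alkali were -0.22, 0.57 and -0.15, with adjusted p = 0.698, 0.127 and 0.656 (exact permutation test). On alkali they were 0.057, 0.68 and 0.21, with adjusted p = 0.940, 0.127 and 0.750 (exact permutation test). No call of the 3 genes against Csf1r held against Adgre1, in either comparison. Csf1r overlaps Hmgxb3 on the opposite strand.

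**Figure D5:**
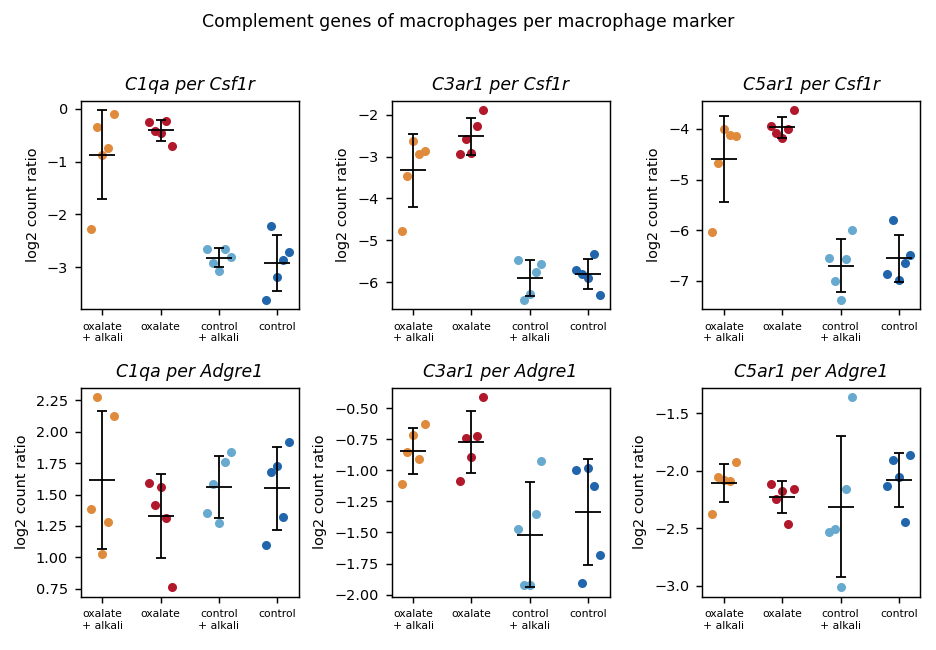
Counts of C1qa, C3ar1 and C5ar1 per count of Csf1r and per count of Adgre1 in each library of the 4 groups. Per Csf1r, C1qa lies at 0.613 to 0.858 in untreated oxalate and at 0.0813 to 0.214 in untreated control, while per Adgre1 it lies at 1.70 to 3.01 in untreated oxalate and at 2.14 to 3.79 in untreated control.

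C5ar2 was also set against C5ar1, since both bind C5a. C5ar2 per C5ar1 was lower in oxalate on alkali (median 0.280) than in control on alkali (median 0.393), a log2 difference of -0.69 (adjusted p = 0.0212, exact permutation test). Untreated oxalate had a median of 0.269 and untreated control one of 0.263, a log2 difference of 0.07 (adjusted p = 0.881, exact permutation test). Oxalate on alkali differed from untreated oxalate by -0.01 (adjusted p = 0.881), and control on alkali from untreated control by 0.75 (adjusted p = 0.155, exact permutation tests). C5ar2 had 8 to 10 counts in each library of control on alkali and 4 to 7 in each of untreated control. The 1 added to both counts therefore weighs on the control ratios.

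Of the 32 tested complement genes, 30 were not called with alkali in oxalate mice, which does not show that they were unchanged. By edgeR's quasi-likelihood test, Masp2 was higher and Hc was lower in oxalate on alkali than in untreated oxalate. These are 2 of 32 tested members, beside 4.08% of all tested genes (1.76% higher and 2.33% lower). At an unadjusted p under 0.05 there were 11 members, beside 20.5% of all tested genes. The median log2 fold change of the tested members was -0.152.

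Masp2 rose by 1.31 ± 0.21 on the log2 scale with alkali (adjusted p = 0.00313 by edgeR), and the 5 libraries on alkali lay above the 5 untreated ones. Hc had a log2 fold change of -1.94 ± 0.40 (adjusted p = 0.0112 by edgeR), and its groups overlapped because library 39 of untreated oxalate was at 0.298 CPM. It was past the cutoff of the filter on low counts in 4 libraries of untreated oxalate and 2 of oxalate on alkali. Its call as lower therefore follows partly from the filter. Both calls were lost when the 2 oxalate groups were fitted alone (adjusted p = 0.0617 for Masp2 and 0.0918 for Hc).

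Several members that were high in oxalate had lower values with alkali without passing the test. The log2 fold changes were -0.94 ± 0.28 for C1qb (adjusted p = 0.062), -1.19 ± 0.40 for C3 (adjusted p = 0.0963) and -1.16 ± 0.37 for C3ar1 (adjusted p = 0.0801) by edgeR. Others stood close to their untreated level, with 0.05 ± 0.21 for Clu and -0.18 ± 0.27 for C7. Leaving out library 32 of untreated oxalate gave 5 lower members (C1qb, C1qc, C3ar1, C5ar2 and Hc), and leaving out library 33 of oxalate on alkali gave 4 (C3, C3ar1, C5ar2 and Hc). DESeq2 called 4 lower (C1qb, C1qc, C3ar1 and Hc). Shares of all tested genes called in these settings are not given here. Macrophage markers summed to 243 to 777 CPM in oxalate on alkali and 586 to 2514 CPM in untreated oxalate. Lyz2 had the most counts of that list, with 2811 to 14996 on alkali and 13592 to 82166 untreated. Of 10 tested markers 2 were called lower, Cd14 and Lyz2, beside 2.33% of all tested genes. Log2 fold changes of the 10 ran from -1.61 for Lyz2 to 0.54 for Cd163, with a median of -0.917. The part of macrophages in these values was not tested.

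In control mice, no member was called with alkali by edgeR's quasi-likelihood test or by DESeq2, beside 0% of all tested genes by edgeR. At an unadjusted p under 0.05 edgeR gave 3 members, C2, Cfi and Masp2, beside 2.52% of all tested genes. Their log2 fold changes were 0.23 ± 0.11, 0.42 ± 0.20 and 0.44 ± 0.20.

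The interaction asks whether the alkali effect differed between oxalate and control mice. No member passed by edgeR or DESeq2, beside 0% of all tested genes by edgeR. At an unadjusted p under 0.05 edgeR gave 5 members, C1qb, C5ar2, C8a, Cr2 and Masp2, beside 9.26% of all tested genes. The largest among them in size was C5ar2 at -1.70 ± 0.60 on the log2 scale (adjusted p = 0.478 by edgeR), and Masp2 was at 0.87 ± 0.29. The oxalate effect on these genes was not shown to differ between mice with and without alkali.

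Other genes of the complement system were counted from a list of 29, of which 19 were tested. In untreated oxalate against untreated control 11 were higher and 2 were lower by edgeR, 68.4% of those tested, beside 49.4% of all tested genes (26.4% higher and 23.1% lower). The higher ones included Itgam, Itgax and Itgb2, the chains of complement receptors 3 and 4, with log2 fold changes of 4.11 ± 0.44, 4.74 ± 0.52 and 4.39 ± 0.46. Apcs and Mbl1 were lower. C4bp had 1 to 8 counts and Ptx3 1 to 9 counts in each control library, and both passed the filter on low counts through the oxalate groups. Their place among the higher genes follows partly from the filter. With alkali in oxalate mice, 3 of the 19 were called, beside 4.08% of all tested genes. Itgam, Itgax and Itgb2 were lower, with log2 fold changes of -1.37 ± 0.37, -1.72 ± 0.44 and -1.59 ± 0.39. Itgam shares exons with Gm49368.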

How the data were processed

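RNA of 20 mouse libraries was prepared with a stranded poly(A) TruSeq kit, per the labels' protocols. The deposited tables hold raw counts per gene, made with bcl2fastq 2.19, Trimmomatic, STAR 2.7.1 and featureCounts, per the submitters' processing notes. These name the build GRCh38.p5, a human one, although the identifiers are mouse genes, and the strand setting is not given in the sources used here. GENCODE M21 (GRCm38) gave symbols for 25587 of 25700 identifiers, and RefSeq gave promoters.

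The filterByExpr function (minimum count 10) retained 15430 genes. Libraries were scaled by TMM, and 4 group means were fitted to all 20 libraries with edgeR 4.0.16 (robust quasi-likelihood test, R 4.3.3), with Benjamini-Hochberg adjustment over all tested genes and a threshold of 0.05. The script was tested on simulated data. CPM values are counts over the TMM-adjusted library total. Ratios of counts had 1 added to both and were tested by exact permutation over 252 splits. A level of 3 counts is a floor that covers counting error only. All 34 listed genes were to be named. The members and lists were chosen with earlier results of these data known. Alternatives were RLE and total-count scaling, DESeq2 1.42.0, no filter, no robust estimation, only the groups compared, and leaving out single libraries or the 6 libraries with Adipoq above 1 CPM.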

Additional observations from a re-analysis of the deposited data

Results flagged for a closer look

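In each group of 5 libraries, the highest or lowest library was compared with its nearest neighbour by Dixon's ratio at the 95% level. Of 128 such tests, 13 stood out, and chance flags about 1 in 20 groups. Factor D stood out in library 33 of oxalate on alkali (110 CPM), library 32 of untreated oxalate (7.54 CPM) and library 4 of control on alkali (39.5 CPM). Library 4 of control on alkali was also the highest of its group for C3 (37.5 CPM), C4b (25.1 CPM) and C6 (0.989 CPM). Library 26 of untreated control was the highest of its group for C3 (54.4 CPM) and Cd46 (5.99 CPM), and library 33 of oxalate on alkali for Cd46 (10.2 CPM). C3ar1 was highest in library 40 of untreated oxalate (50.3 CPM), C9 in library 32 of untreated oxalate (0.291 CPM) and C5ar1 in library 19 of untreated control (1.35 CPM). Cfi was lowest in library 37 of control on alkali (3.66 CPM).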

How the results depend on the processing

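No paired analysis was possible because no replicate number occurs in 2 groups. Without alkali, 18 members were higher whichever single library was left out, and 7 to 8 were lower. On alkali, 18 to 21 were higher and 4 to 6 lower. With alkali in oxalate mice, 1 was higher and 1 to 5 were lower, and in control mice and for the interaction 0 were called. Total-count scaling gave 5 lower members without alkali and 3 on alkali, and turned Cr1l to 0.23 without alkali (adjusted p = 0.0298 by edgeR). For alkali in oxalate mice DESeq2 gave 4 lower, and a fit of only the groups compared gave 0 higher and 0 lower of 30 tested. Without the libraries with Adipoq above 1 CPM there were 2 higher and 6 lower, and on alkali oxalate against control had 2 lower. With Adgre1 in place of Csf1r, chosen after seeing the data, the log2 ratio differences without alkali were -0.22 for C1qa, 0.57 for C3ar1 and -0.15 for C5ar1, and on alkali 0.057, 0.68 and 0.21. Leaving out single libraries, the Csf1r ratio on alkali was 1.94 to 2.47 for C5ar1, with adjusted p = 0.0363 to 0.0726 (exact permutation test). The cause of these changes was not tested. Shares of all tested genes called under these alternatives are not given here, so these counts of members have no background beside them. Hc, C9, Masp1 and Masp2 rest on few counts, so depth limits their precision.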
